A study of Mus musculus with 3 samples.

Results

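The let-7 family is a set of closely related microRNAs (miRNAs) that share one seed, the stretch at bases 2 to 8 that pairs with target mRNAs. Its members on the serum panel were taken by name as the 9 unstarred probes let-7a, let-7b, let-7c, let-7d, let-7e, let-7f, let-7g, let-7i and miR-98, out of 566 endogenous probes. Serum was collected from mice carrying 4T1 mammary tumours, a transplantable mouse model of triple-negative breast cancer, and miRNAs were counted on the NanoString nCounter Mouse v1.5 panel, in which coloured barcodes hybridize to each miRNA without amplification. There were 2 Tn+ serum pools and 1 Tn- serum pool.

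Tn+ pools came from female BALB/c mice with tumours of a 4T1/Tn+ line, made by CRISPR/Cas9 targeting of the gene that the labels write as Ccosmc, exon 2. Cosmc is the chaperone needed to extend O-glycans, and cells without it expose the short Tn sugar. The Tn- pool came from mice whose tumours were labelled Tn-, and the text used here gives no further detail of the cells behind it. All mice were 6 to 8 weeks old when obtained, had 100000 tumour cells placed in the mammary fat pad and were sacrificed at day 28, with 8 or more mice per group. Whether the Tn+ line is 1 clone, how many mice entered each pool and whether the Tn+ pools hold different mice is not stated, so the spread between the Tn+ pools may be technical, and the Tn- pool has no replicate. The comparison addresses which cell-free miRNAs in serum differ with the Tn status of the tumour. The panel measures miRNAs, so the mRNA of Cosmc was not measured.

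let-7 was found in the nematode Caenorhabditis elegans as a regulator of developmental timing, and its sequence is conserved in animals. In mammals the members are cut from separate hairpins by Drosha and Dicer, the RNA-binding protein LIN28 blocks their maturation, and the mature miRNAs repress mRNAs such as Hmga2, Myc and those of the Ras family, so the family is generally described as restraining growth. Blood cells, including red cells and platelets, carry let-7 miRNAs, and these are among the miRNAs commonly measured in serum.

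All 9 members matched a mature sequence in RefSeq (GRCm38.p6), and each is 22 bases long. The sequences are shown because the members differ from each other by only 1 to 6 bases, which matters for reading their separate probe values. Capitals mark the seed, GAGGUAG in every member.
let-7a: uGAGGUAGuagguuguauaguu
let-7b: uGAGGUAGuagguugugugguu
let-7c: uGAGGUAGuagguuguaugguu
let-7d: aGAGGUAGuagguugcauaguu
let-7e: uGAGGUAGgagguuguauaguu
let-7f: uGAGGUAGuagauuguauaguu
let-7g: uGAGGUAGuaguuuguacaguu
let-7i: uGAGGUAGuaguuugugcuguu
miR-98: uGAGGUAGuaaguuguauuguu

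Positions are counted from 1 at the 5′ end, with the base of let-7a first. Relative to let-7a, let-7c carries A19G, let-7e U9G and let-7f G12A, so each is 1 base away from it. let-7b carries A17G and A19G and is 1 base away from let-7c. let-7g (G12U, U18C) and let-7i (G12U, A17G, U18C, A19U) share 2 changes and differ from each other at 2 bases. let-7d carries U1A and U16C, and miR-98 carries G11A and A19U. Of the 36 pairs of members, 4 differ at 1 base and 10 at 2 bases. How much signal near-identical members lend each other's probes was not tested, and values of such pairs are to that extent uncertain.

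The genes lie in several places of GRCm38.p6. Mirlet7a-1 (mature let-7a at chr13:48538239-48538260), Mirlet7f-1 (chr13:48537889-48537910) and Mirlet7d (chr13:48536078-48536099) lie side by side on the minus strand, with 261 and 1714 bases between their hairpins. Mirlet7c-2 (chr15:85706616-85706637) and Mirlet7b (chr15:85707325-85707346) are 621 bases apart within the interval of the lncRNA gene Lncppara. Mirlet7f-2 (chrX:151912353-151912374) and Mir98 (chrX:151913229-151913250) are 785 bases apart within Huwe1, a ubiquitin ligase gene. Mirlet7g (chr9:106178846-106178867) lies within Wdr82 and Mirlet7e (chr17:17830366-17830387) within Spaca6. Mirlet7i (chr10:122985698-122985719) and Mirlet7c-1 (chr16:77599672-77599693) lie in no other annotated gene. The hairpin of Mirlet7a-2 on chromosome 9 holds the let-7a sequence too. let-7a, let-7c and let-7f are thus each made from 2 genes that the panel cannot separate.

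Values are the authors' normalized signal, in units that rise in even steps at the low end (steps of 0.896 and 1.09 units in the Tn+ pools, against 1.08 in Tn- serum). The lowest value of a pool, its floor, was 1 and 1.09 units for the Tn+ pools, against 1.08 for Tn- serum, and many probes shared it. The summed signal of all probes was 59444 and 31977 units in the Tn+ pools against 4204 in the Tn- pool, and 228 and 150 probes lay above the floor in the Tn+ pools against 85 in the Tn- pool. All values of the Tn- pool therefore rest on less signal, and a low or absent value there is less firm than one in the Tn+ pools. The red cell markers (miR-451, miR-144, miR-486 and miR-16) summed to 47188 and 17105 units in the Tn+ pools against 2132 in the Tn- pool. In both Tn+ pools 4 of 4 were above the floor, against 3 of 4 in the Tn- pool, where miR-144 sat at the floor. The myeloid markers (miR-223, miR-142-3p and miR-142-5p) summed to 877 and 440 units against 288, the lymphocyte markers (miR-150 and miR-342-3p) to 418 and 136 against 25.3, and the platelet and endothelial markers (miR-126-3p, miR-126-5p and miR-191) to 71.3 and 51.9 against 3.24, where all 3 were at the floor. Liver markers (miR-122 and miR-192) summed to 48.3 and 23.5 units against 2.16, and the 6 epithelial markers (miR-200a, miR-200b, miR-200c, miR-141, miR-205 and miR-429) to 40.5 and 40.4 against 12.9. Above the floor were 3 of 3 myeloid, 2 of 2 lymphocyte, 3 of 3 platelet and endothelial, 1 of 2 liver and 2 of 6 epithelial markers in each Tn+ pool, against 2, 1, 0, 0 and 2 in the Tn- pool. Each of the 6 sums was thus higher in both Tn+ pools on the deposited scale, as were most let-7 members. Not every single marker was: the myeloid miR-142-5p had 124 and 201 units in the Tn+ pools against 150 in the Tn- pool. As a share of all signal the lists did not move alike. Myeloid markers took 1.48% and 1.38% in the Tn+ pools against 6.84% in the Tn- pool, and epithelial markers took 0.0681% and 0.126% against 0.306%. Lymphocyte markers took 0.703% and 0.426% against 0.601%. Red cell markers took 79.4% and 53.5% in the Tn+ pools against 50.7% in the Tn- pool, platelet and endothelial markers 0.120% and 0.162% against 0.0771%, and liver markers 0.0813% and 0.0734% against 0.0514%. The Tn- shares of the platelet and endothelial list and of the liver list are sums of floor values and not measured shares. The part of these markers in the let-7 values was not tested.

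let-7 signal was higher in Tn+ than in Tn- serum on the deposited scale, and the members held different shares of it. The 2 members above the floor in the Tn- pool, let-7f and let-7g, were above it in both Tn+ pools too. Members at the floor in the Tn- pool, which has less signal in all, are not shown to be absent there. The 9 probes summed to 840 and 691 units in the Tn+ pools against 47.4 units in Tn- serum, 17.7-fold and 14.6-fold higher in Tn+ serum. As a share of all signal the family took 1.41% and 2.16% in the Tn+ pools against 1.13% in Tn- serum, a share 1.25-fold and 1.92-fold higher in Tn+ serum. With miR-451, the most abundant probe, left out of the total, the shares were 5.12% and 3.67% against 2.02%. More released miRNA, more releasing cells and more RNA recovered or loaded cannot be told apart in pooled serum.

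**Figure D1:**
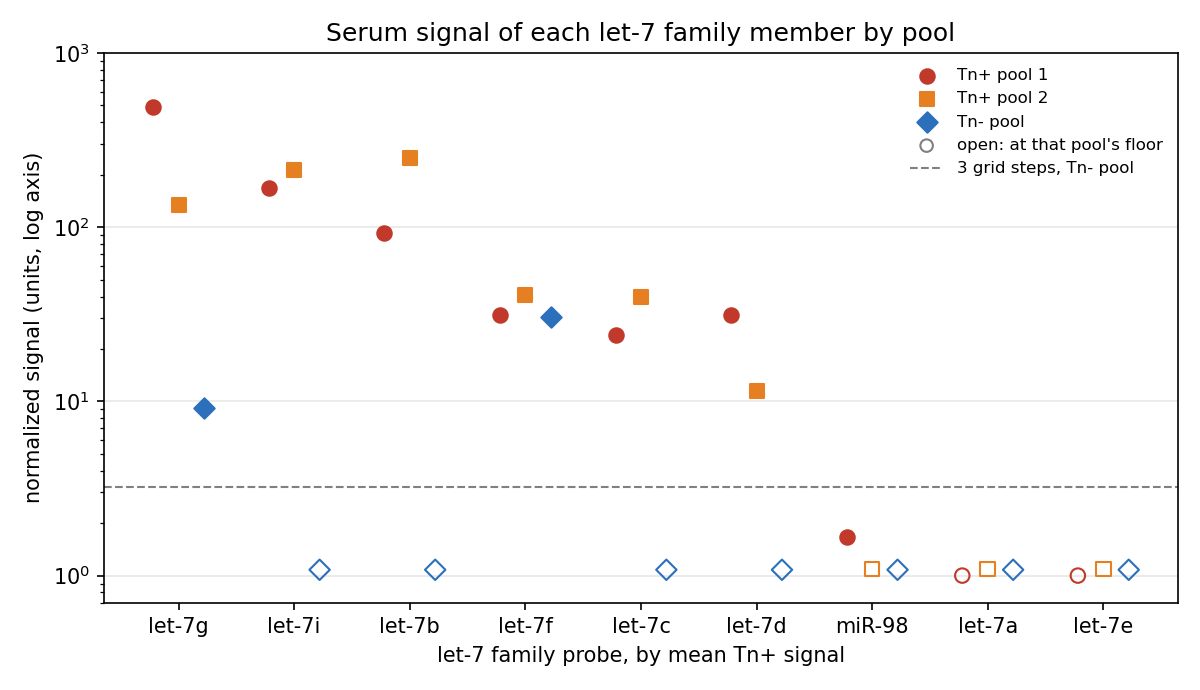
Normalized signal (log axis) of each let-7 family probe in the 2 Tn+ pools and in Tn- serum, ordered by mean Tn+ signal, with open symbols for values at a pool's floor and a dashed line at 3 grid steps of the Tn- pool (3.23 units). let-7i, let-7b, let-7c and let-7d sit at 11.5 to 249 units in the Tn+ pools and at the floor in the Tn- pool, while let-7f sits at 31.2, 40.9 and 30.7 units.

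let-7g and let-7i, the pair that shares G12U and U18C, were the brightest members on average in Tn+ serum. let-7g had 489 and 134 units in the Tn+ pools against 9.12 in the Tn- pool, and it ranked 9th and 18th of all probes there, against 29th in Tn- serum. Both Tn+ values were above the Tn- value, but they lay 3.64-fold apart. On signal + 1, 19.8% of all probes differed by 2-fold or more between the Tn+ pools. All probes here include the 54.2% at the floor in every pool, which cannot differ so. let-7i had 168 and 213 units in the Tn+ pools, against the floor value of 1.08 units in Tn- serum. Its Tn+ pools lay within 1.26-fold of each other, the closest agreement among the members at the floor in Tn- serum alone. The pair summed to 657 and 347 units in Tn+ serum against 10.2 in Tn- serum.

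let-7b and let-7c, neighbours on chromosome 15 that differ at 1 base, were both above the floor in both Tn+ pools and at the floor in the Tn- pool. let-7b had 93.0 and 249 units in the Tn+ pools. let-7c had 24.1 and 39.8 units in the Tn+ pools. Each of these was higher in Tn+ pool 2, by 2.67-fold for let-7b and 1.65-fold for let-7c, the opposite of let-7g. The ratio of let-7b to let-7c was 3.87 and 6.25 in the Tn+ pools, and it has no value in the Tn- pool, where both are at the floor.

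The 3 members encoded together on chromosome 13 had unlike values. let-7d, the only member that carries a change at its first base (U1A), had 31.2 and 11.5 units in the Tn+ pools, against the floor in Tn- serum. let-7f had 31.2 and 40.9 units in the Tn+ pools against 30.7 in the Tn- pool. let-7f was thus the one member well above the floor at a like level in all 3 pools, and Tn+ pool 1 and the Tn- pool differed by less than 1 grid step. let-7a, the member from which the others are numbered above, was at the floor in all pools, although let-7f, let-7c and let-7e are each 1 base away from it. let-7e was at the floor in all pools too. miR-98, the X-chromosome neighbour of a let-7f gene, had 1.67 units in Tn+ pool 1, the lowest value above that pool's floor, and sat on the floor in the other Tn+ pool and in Tn- serum.

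By mean signal in Tn+ serum the order was let-7g (312 ± 251 units, SD, n = 2), let-7i (190.5 ± 31.5), let-7b (171 ± 110), let-7f (36.0 ± 6.82), let-7c (31.9 ± 11.1), let-7d (21.4 ± 13.9) and miR-98 (1.38 ± 0.410), with let-7a and let-7e at the floor. Neighbours overlapped within the first 3 and within the next 3: the ranges of let-7g, let-7i and let-7b overlap, as do those of let-7f, let-7c and let-7d. The lowest value of the first 3, 93.0 units, was above the highest of the next 3, 40.9 units. In the Tn- pool let-7f came first with 30.7 units and let-7g second with 9.12 units, 27 and 7 grid steps above the lowest value over the floor, and the other 7 members did not exceed the floor. These are orders of probe signal, since the efficiency of each probe is not given in the sources used here.

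As shares of the family signal, let-7g made up 58.2% and 19.4% in the Tn+ pools against 19.3% in Tn- serum. let-7i made up 20.0% and 30.8% in the Tn+ pools, and let-7b 11.1% and 36.0%. In the Tn- pool each member at the floor counts for 2.28%, which is the floor itself and not a measured share. let-7b, let-7g and let-7i together held 89.3% and 86.2% of the family signal in the Tn+ pools against 23.8% in the Tn- pool. let-7f held 3.72% and 5.91% in the Tn+ pools against 64.8% in the Tn- pool. That Tn- share was 77.1% with floor values set to 0 and 49.1% with floor values set to 3 grid steps, against Tn+ means of 4.83% and 4.78% under the same settings. Shares within a pool do not depend on any factor applied to the whole pool. With 2 pools against 1, the smallest p an exact one-sided permutation test can give is 0.333, so no share was tested.

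**Figure D2:**
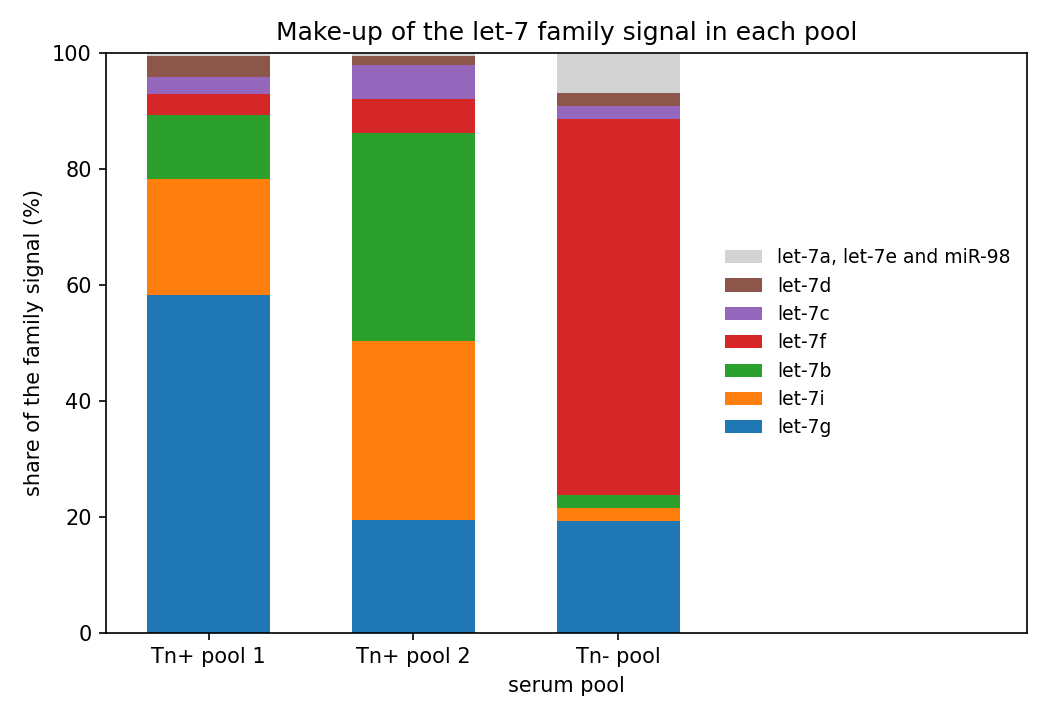
Percent of the summed let-7 family signal held by each member in both Tn+ pools and in Tn- serum, stacked to 100%, where let-7a, let-7e and miR-98 are joined. let-7g, let-7i and let-7b fill 89.3% and 86.2% of the Tn+ bars, and let-7f fills 64.8% of the Tn- bar, in which every member other than let-7f and let-7g is drawn at the floor value.

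Expressed relative to let-7f in the same pool, which removes any pool-wide factor, let-7g was 15.7-fold and 3.29-fold as bright as let-7f in Tn+ serum, against 0.297-fold in Tn- serum. let-7i was 5.39-fold and 5.21-fold as bright as let-7f in the Tn+ pools, while let-7i sat at the floor in Tn- serum. let-7g was thus above let-7f in both Tn+ pools and below it in the Tn- pool. Such ratios of 2 probes compare across pools and do not give the ratio of their molecules.

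A fold rule without a p-value was used for each probe, requiring (signal + 1) to be at least 2-fold higher in each Tn+ pool than in the Tn- pool. let-7b, let-7c, let-7d, let-7g and let-7i met it, 5 of the 9 members, against 12.0% of all 566 probes, and none of the 9 was 2-fold lower in both (0.707% of all probes). The other 4 were let-7f, miR-98, let-7a and let-7e, of which let-7a and let-7e are among the 307 probes (54.2%) that never exceeded the floor. Being above the floor in both Tn+ pools and at the floor in the Tn- pool was the state of let-7b, let-7c, let-7d and let-7i, 4 of the 9 members, against 11.7% of all probes. For those 4 the size of the ratio depends on the floor. Set against 3 grid steps of the Tn- pool (3.23 units), let-7i was 52.0-fold and 65.8-fold higher in the Tn+ pools. The same ratios were 28.8-fold and 76.9-fold for let-7b, 7.44-fold and 12.3-fold for let-7c, and 9.66-fold and 3.56-fold for let-7d. These are not lower limits, because the counts subtracted as background are unknown. The measured ratio of let-7g was 53.6-fold and 14.7-fold, and that of let-7f 1.02-fold and 1.33-fold.

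On the log2(signal + 1) scale the median over the 9 members was 3.59 and 2.59 for the 2 Tn+ pools over the Tn- pool, beside -0.06 and 0.01 over all 566 probes. Since 54.2% of all probes were at the floor in every pool, the median over all probes is the ratio of 2 floor values and carries no measured level. Over the 60 probes that exceeded the floor in every pool, which include let-7f and let-7g, the medians were 1.43 and 1.64. let-7g lay above that shift with 5.60 and 3.74, and let-7f lay below it with 0.02 and 0.40. Both ratios of a probe share the one Tn- pool as denominator, so they are not independent of each other.

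**Figure D3:**
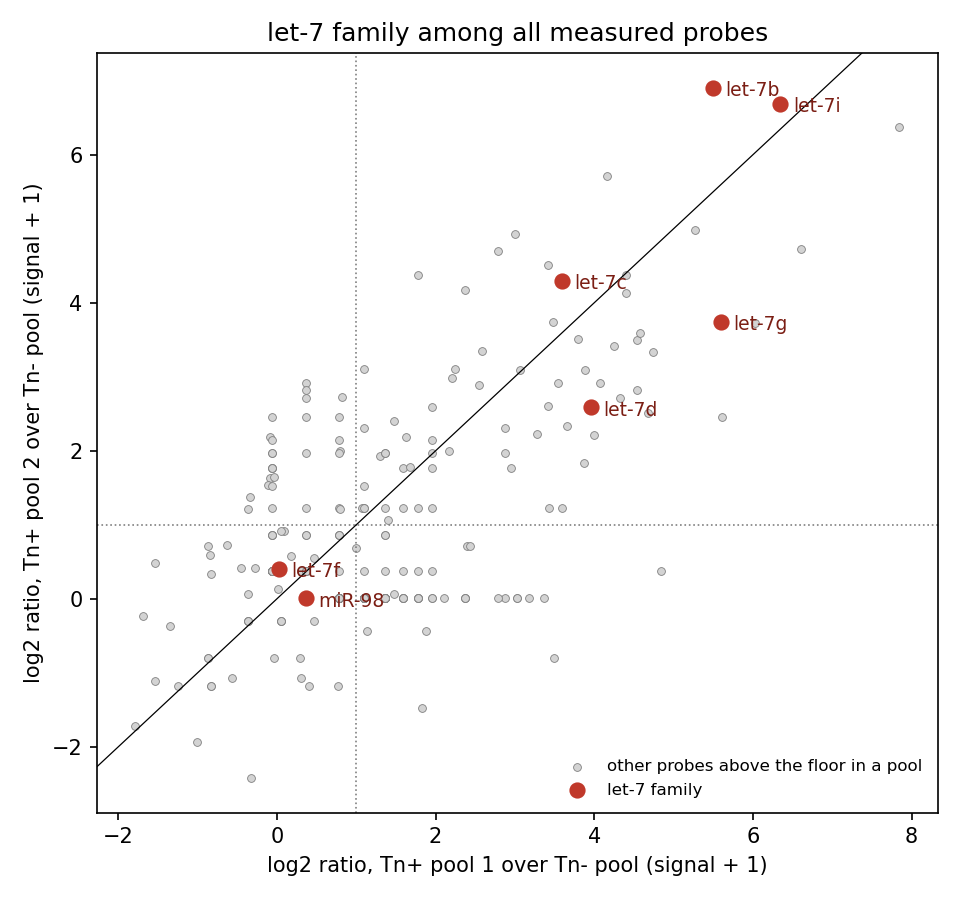
Log2 ratio of each probe that exceeded the floor in some pool, Tn+ pool 1 over the Tn- pool (x) against Tn+ pool 2 over the Tn- pool (y), on signal + 1, with dotted lines at 2-fold and the line of equal ratios. let-7i (6.35 and 6.68) and let-7b (5.50 and 6.91) lie at the upper right, and let-7f (0.02 and 0.40) and miR-98 (0.36 and 0.01) lie near the origin.

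In limma on log2(signal + 1) over all 566 probes, with Benjamini-Hochberg adjustment, no let-7 member passed an adjusted p of 0.05, and neither did any other probe (0% called). At an unadjusted p under 0.05 there were 5 members, let-7b, let-7c, let-7d, let-7g and let-7i, all higher in Tn+ serum, as were 9.89% of all probes, while 1.24% of all probes and no member were lower. let-7i had a log2 ratio of 6.51 (SE 0.24, adjusted p = 0.117) and was higher in both Tn+ pools. let-7b had 6.20 (SE 0.80, adjusted p = 0.248) and let-7c 3.94 (SE 0.42, adjusted p = 0.224). let-7g had 4.67 (SE 1.05, adjusted p = 0.351) and let-7d 3.27 (SE 0.78, adjusted p = 0.379). let-7f had 0.21 (SE 0.26) and miR-98 0.18 (SE 0.25), both with an adjusted p of 0.895. The fit has 1 residual degree of freedom, from the Tn+ pools alone, and assumes that the Tn- pool varies as they do. Restricted to the 259 probes that exceeded the floor in some pool, limma called the same 5 members (let-7d at adjusted p = 0.0431) and 11.2% of probes, all higher in Tn+ serum. This restriction keeps 7 members, 5 of which pass it only through Tn+ serum, so that count is no support for a difference. In the 58 probes with a mean signal of 10 or more the same 5 of the 6 members kept were called, as were 55.2% of probes, and with floor values set to 3 grid steps the same 5 were called over all 566 probes, as were 7.60% of probes. These 5 members had 1.08 to 9.12 units in the Tn- pool. They reach a mean of 10 only through Tn+ serum, so that count is no support for a difference either. In each of these fits the 5 members had the same SE (1.15, 1.34 and 0.648 in the order given). The p-values there do not measure each member's own Tn+ spread.

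The totals of the pools differ, and the ratios were therefore also computed after 3 scalings between pools, which removed a 3.18-fold (median of ratios over the 60 shared probes), 6.06-fold (100 highest probes) and 10.4-fold (equal totals) excess of the Tn+ pools. let-7i and let-7b met the 2-fold rule under each of them, with log2 ratios of 5.28, 4.51 and 3.84 for let-7i and 4.97, 4.20 and 3.53 for let-7b. let-7c and let-7g met it under the first 2 scalings and let-7d under the first, which gives 5 of 9 members against 5.83% of all probes and then 4 of 9 against 3.18%. With equal totals 2 of 9 members met it, against 1.77% of all probes. let-7f turned lower in Tn+ serum under all 3 scalings, with log2 ratios of -1.41, -2.32 and -3.07, and was at least 2-fold lower in both Tn+ pools each time, as were 4.95%, 18.6% and 26.3% of all probes. In limma on the scaled values of the 259 probes, no member passed after the median of ratios (0% of probes called in either direction; adjusted p = 0.545 for let-7i and let-7b). After the scaling by the 100 highest probes let-7i (adjusted p = 0.00107) and let-7b (adjusted p = 0.00271) passed as higher in Tn+ serum, among 1.54% of probes called higher, while 2.70% and no member were called lower. With equal totals let-7i (adjusted p = 0.00478) and let-7b (adjusted p = 0.00935) passed as higher, again among 1.54%, and let-7f as lower (adjusted p = 0.0269), among 9.27% called lower. let-7i and let-7b are among the 259 probes only through Tn+ serum, so these p-values are no support for a difference in either of them. The fits after the latter 2 scalings gave let-7i, let-7b and let-7f the same SE (0.992 and 0.997). Their p-values thus do not measure each member's own Tn+ spread. Over all 566 probes the scaled fits called 1.94%, 3.36% and 1.59% of probes higher in Tn+ serum, in the same order of scalings. They called 57.4%, 61.8% and 80.2% lower, which is 325, 350 and 454 probes. Among these are the 307 probes at the floor everywhere, which gain a group difference when the pools are multiplied by different factors. The rest of the probes called lower exceeded the floor in some pool. In the same limma fits to the 58 probes with a mean signal of 10 or more, none of the 6 members kept passed after any of the 3 scalings.

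**Figure D4:**
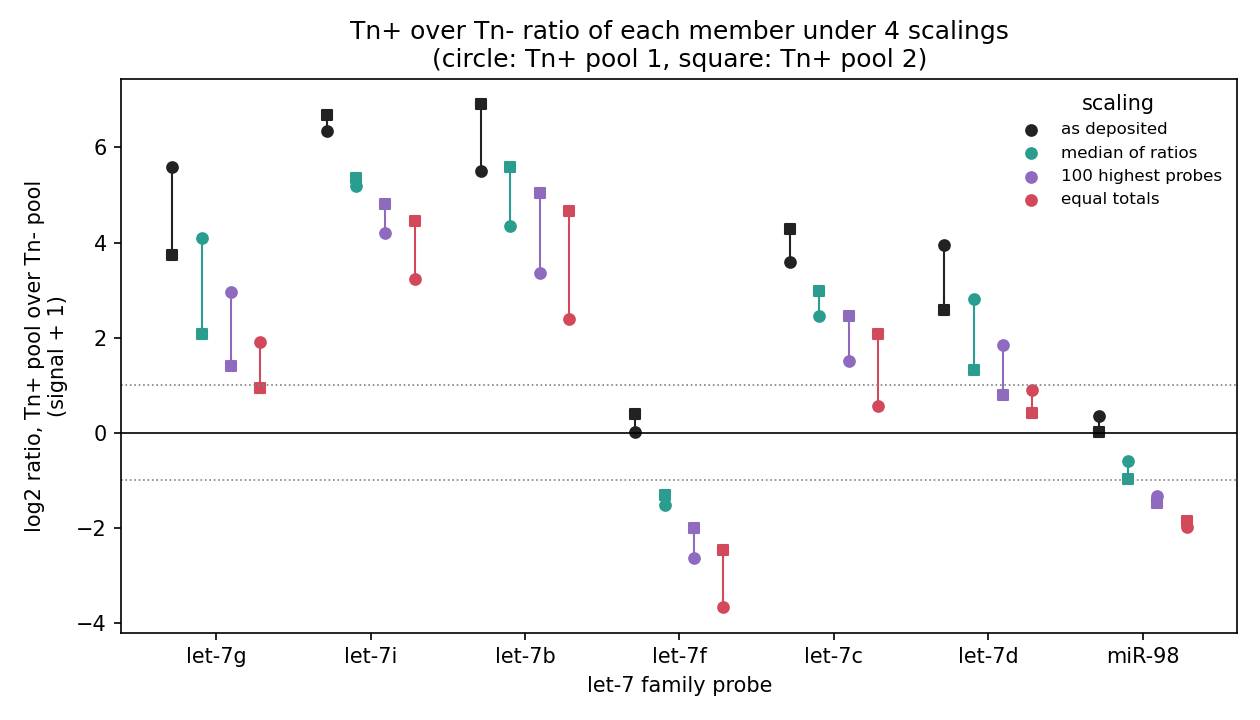
Log2 ratio of (signal + 1) in Tn+ pool 1 (circles) and Tn+ pool 2 (squares) over the Tn- pool for the 7 members above the floor in a pool, as deposited and under 3 scalings, with dotted lines at 2-fold. let-7i and let-7b stay above 2-fold under every scaling shown, and let-7f is near 0 as deposited and between -1.31 and -3.67 when scaled.

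The Tn- level of let-7f was among the brighter ones of its pool. It ranked 12th of all probes there, level with the joint miR-106a and miR-17 probe at 30.7 units. Among the 18 probes with 20 or more units in the Tn- pool, its log2 ratio was the 4th lowest, above miR-720 (-0.96), miR-202-5p (-0.86) and miR-142-5p (0.07). The other 14 had log2 ratios of 1.05 to 4.93.

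No passenger-strand (starred) probe of the family was on the panel. The cluster partners of let-7 genes, listed from knowledge of the loci, were miR-99a, miR-99b, miR-100 and both arms of miR-125a and miR-125b. Of these 7 probes, 5 were above the floor in some pool, and all 7 sat at the floor in Tn- serum. miR-125b-5p, whose gene Mir125b-1 lies downstream of Mirlet7a-2 on chromosome 9, had 6.15 and 42.0 units in the Tn+ pools. Its signal cannot be assigned to that gene. miR-125a-5p, 367 bases from the let-7e hairpin, had 3.46 and 4.97 units in the Tn+ pools, while let-7e itself was at the floor. miR-125a-3p had 4.36 units in Tn+ pool 1 alone, and miR-99a and miR-100 each had 2.79 units in Tn+ pool 2 alone.

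The seed was searched in the 437 of 566 probes that matched a mature sequence by name. Beyond the members, 1 of these, miR-1961, has the same seed and 17 bases. miR-202-3p shares the first 6 of the 7 seed bases.
miR-1961: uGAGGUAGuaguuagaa
miR-202-3p: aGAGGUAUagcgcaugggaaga
miR-1961 was at the floor in all pools. miR-202-3p had 2.57 units in Tn+ pool 1 and was at the floor in Tn+ pool 2, against 1.58 units in the Tn- pool, which is the lowest value above the floor there. miR-1961 and miR-202-3p thus carried next to no signal in any pool, and probes without a matched sequence were not searched.

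The probes whose pair of log2 ratios lay closest to that of the family sum (4.12 and 3.84), among probes that exceeded the floor in all 3 pools, were miR-27a (3.80 and 3.51, distance 0.46), miR-23a (4.57 and 3.59, distance 0.51) and miR-16 (3.88 and 3.09, distance 0.79). miR-27a had 155 and 127 units in the Tn+ pools against 10.2 in the Tn- pool. miR-23a had 393 and 199 units against 15.6, and miR-16 had 2610 and 1506 units against 176. This likeness rests on 3 pools. The family sum was 32.2% and 45.9% of the miR-16 signal in the Tn+ pools against 26.9% in Tn- serum. For let-7g alone it was 18.7% and 8.92% in the Tn+ pools against 5.18% in Tn- serum.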

How the data were processed

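Serum RNA of 2 Tn+ pools and 1 Tn- pool, grouped by their titles, was measured on 566 endogenous probes. Per the labels' protocols, RNA from 200 µL of serum was taken up in 20 µL, and some 30 ng went into a hybridization of 16.5 h. The deposited values are a normalized signal. Per the series' design text the authors obtained it from the nCounter Advanced Analysis Software, and the submitters' processing notes list R 4.4. How the background, the floor and the scaling probes were set is not given in the sources used here. The second deposited table, compared row by row, holds the same signal in 1698 of 1698 values, and 557 of its 566 rows carry the same probe name. Low values up to 60 units lay within 0.05 steps of an even grid, 200 of 200, 126 of 126 and 78 of 78 in the 3 pools, but the subtracted background is unknown, so whole counts were not recovered and depth is not known.

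Log2(signal + 1) was fitted with limma 3.58.1 (lmFit, eBayes) in R 4.3.3 over all probes, with no covariate. This scale understates fold changes of low probes. The fit was tested on simulated data, where its ratios of brighter probes were on average larger than those planted and, over all probes, its calls included false ones. Alternatives were scaling, pseudocounts of 0.5 and 4, filters, the floor value and leaving out a Tn+ pool. Scaling factors were applied to floor values too. Python 3.11.15, numpy 2.4.6, pandas 2.3.3 and matplotlib 3.10.9 did the rest. Mature sequences are from RefSeq (GRCm38.p6), matched by name. Names without an exact match, those of members included, took the 5p arm, or the 3p arm where no 5p arm was listed. The named miRNAs are all 9 members, the fixed list of related probes above the floor and the 3 probes nearest the family sum. miR-720, miR-202-5p, miR-142-5p and the miR-106a and miR-17 probe were named after their values were seen. The members and lists were chosen with earlier results of these data known.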

Additional observations from a re-analysis of the deposited data

How the results depend on the processing

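No paired analysis was possible because the Tn- group has 1 pool and shares only 1 replicate number with the Tn+ group. The Tn- pool limits precision, with 18 probes at 20 units or more, against 49 and 47 in the Tn+ pools.

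The number called by limma among the 7 members above the floor in some pool was 0 over all probes and with pseudocounts of 0.5 and 4. It was 5 with either filter (above the floor in a pool, or a mean of 10 or more, where 11.2% and 55.2% of probes were called higher in Tn+ serum) and 5 with floor values at 3 grid steps (7.60% of probes). Over all probes it was 3 after the median of ratios (2 higher and 1 lower in Tn+ serum), 5 after the 100 highest probes (4 higher, 1 lower) and 4 with equal totals (2 higher, 2 lower). In these scaled fits the 307 probes at the floor everywhere, let-7a and let-7e among them, gain a group difference by construction. let-7a and let-7e were called lower each time, which makes 5, 7 and 6 of all 9 members. Scaling with the filter on the floor, added after seeing the data, gave 0, 2 and 3 in the same order, and with a mean of 10 or more 0 each time. let-7b, let-7c, let-7d and let-7i pass the filter on the floor only through Tn+ serum. These and let-7g reach a mean of 10 only through Tn+ serum. Counts of members called higher under either filter are therefore no support for a difference.

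The number meeting the 2-fold rule was 5, was 5 with either Tn+ pool left out, which can only raise it, and moved to 2 with equal totals. The log2 ratio of the family sum was 3.98 as deposited, 2.33, 1.40 and 0.63 after the 3 scalings, 3.60 with floor values at 3 grid steps, 3.84 to 4.12 leaving out a Tn+ pool and, added after seeing the data, 4.22 with floor values at 0 and 5.36 without let-7f. The family share without miR-451 in the total was 4.40% in Tn+ serum (mean) and 2.02% in Tn- serum, against 1.79% and 1.13% with it, and 1.41% to 2.16% leaving out a Tn+ pool.

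let-7f reversed to -1.41, -2.32 and -3.07 after the 3 scalings. miR-98 reversed to -0.79, -1.40 and -1.92, and to -0.33 with floor values at 3 grid steps. The direction of let-7b, let-7c, let-7d, let-7g and let-7i was the same under every alternative run. limma was not run with a Tn+ pool left out, which leaves no residual degrees of freedom. Adjusted p over the 15 limma fits ranged from 5.84e-14 to 0.545 for let-7i and from 0.00871 to 0.872 for let-7d. The lowest value of both came from the fit with floor values at 3 grid steps, where both had the same SE (0.648). Their Tn+ pools lay 1.26-fold and 2.71-fold apart, and the Tn- value of both was the set floor. The p-values of that fit therefore do not measure each member's own spread.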

Other observations

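Between the Tn+ pools, values of signal + 1 lay 2-fold or more apart for 19.8% of all probes, and for let-7g, let-7d and let-7b among the members. All probes include the 54.2% at the floor in every pool, which cannot lie so far apart. let-7g (3.64-fold) and let-7d (2.71-fold) were higher in Tn+ pool 1, while let-7b (2.67-fold), let-7c (1.65-fold), let-7f (1.31-fold) and let-7i (1.26-fold) were higher in Tn+ pool 2. Among red cell miRNAs, miR-451 (3.27-fold), miR-144 (2.78-fold) and miR-16 (1.73-fold) were higher in Tn+ pool 1, and miR-486 was lower there at 0.467-fold. The family sum was 1.95% and 5.25% of the miR-451 signal in the Tn+ pools against 2.55% in Tn- serum. These are single pools, and no test was made.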
